A study of Mus musculus with 8 samples.

Results

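Small nucleolar RNAs (snoRNAs) were compared between hemophagocytes and resting macrophages of the mouse spleen. The members were all genes whose platform symbol begins with Snora or Snord followed by a number, 1 probe set each, and they came to 53 of 19940 features tested. Of these, 20 were H/ACA snoRNAs (Snora symbols) and 33 were C/D snoRNAs (Snord symbols). Of 97 probe sets that name a snoRNA, 82 name snoRNAs alone and were used, and 15 also name another gene and were left out. Among the genes left out in this way were Snord32a and Snord34, which share a probe set with Rpl13a, and Snord14c and Snord14d, which share one with Hspa8. The measured values entered this choice once: where a member had several probe sets (7 members), its probe set was selected on the highest mean over all 8 arrays, so levels carry no test. For Snora3, for example, the chosen probe set averaged 8.00 and the other 7.99 on the log2 scale. The dim and the bright members were both kept, and 18 of the 53 lay at or above the median level of all features.

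All mice were wild-type C57Bl/6j males 8 weeks old. Hemophagocytes, macrophages that have engulfed blood cells, came from mice given 37.5 ug of CpG1826, a Toll-like receptor ligand, with 200 ug of the antibody 1B1.3A, which blocks the IL-10 receptor. Resting splenic macrophages came from mice given 200 uL of PBS. Both treatments were injected intraperitoneally on alternate days for 4 doses, and 20 cells per mouse were laser-captured from spleen touch preparations and pooled. Each group had 4 Affymetrix mouse Gene ST 1.0 arrays, numbered 2, 3, 5 and 6 for hemophagocytes and 3, 4, 5 and 6 for resting macrophages. All hemophagocytes came from treated mice and all resting macrophages from mice given PBS, so engulfment and treatment cannot be told apart. The labels leave unsaid whether an array holds the cells of 1 mouse or of several, and the tests below therefore weigh differences against the scatter of these arrays, part of which may be technical. In such captured cells, fewer cells of a type and less RNA per cell cannot be told apart.

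The snoRNAs are short noncoding RNAs of the nucleolus that guide chemical changes on ribosomal RNA. C/D snoRNAs direct methylation of the ribose and H/ACA snoRNAs direct conversion of uridine to pseudouridine, each within a particle of 4 core proteins. A few are needed for the cleavage of the ribosomal RNA precursor instead. In mammals most lie in introns of host genes, many of which encode ribosomal proteins, and are released from the excised intron. A probe set placed on a snoRNA can therefore bind the mature snoRNA and also unspliced host RNA, and the values do not separate them.

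By gene span in the RefSeq table of assembly GRCm38.p6, 52 of the 53 members lay within another gene and 1, Snord118, did not. The table gives no strand, so hosts were taken by span alone. A protein-coding gene held 40 members and only long noncoding RNA genes held 12. Genes of ribosomal proteins held 21. In 10 cases a host held 2 members, among them Snora73a and Snora73b in Snhg3, Snora16a and Snora44 in Snhg12, and Snord15a and Snord15b in Rps3.

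Members of such a pair come from RNA that starts at the same place, and the start windows of 4 hosts are shown for this reason, because the pairs of 3 of them and Snord47 of Gas5 carry the contrasts described below. Each window runs from 50 bases before the annotated start to 50 bases from it, on the gene's strand, from RefSeq (GRCm38.p6). They lie at chr4:132353637-132353736 on the minus strand (Snhg3), chr4:132308628-132308727 on the plus strand (Snhg12), chr1:161034551-161034650 and chr1:161035116-161035215 on the plus strand (Gas5, with its 2 annotated starts), and chr7:99483660-99483759 on the minus strand (Rps3). Capitals mark the pyrimidine run CTTTC, the like run CTTCC, and the motif TATAAA, each looked for on either strand.
Snhg3: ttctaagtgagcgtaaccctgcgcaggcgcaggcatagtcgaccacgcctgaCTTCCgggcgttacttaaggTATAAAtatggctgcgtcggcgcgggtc
Snhg12: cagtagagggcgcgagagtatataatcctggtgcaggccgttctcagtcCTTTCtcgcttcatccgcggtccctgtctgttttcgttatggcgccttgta
Gas5 first start: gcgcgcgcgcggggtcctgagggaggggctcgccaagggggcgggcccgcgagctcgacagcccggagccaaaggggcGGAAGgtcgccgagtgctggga
Gas5 second start: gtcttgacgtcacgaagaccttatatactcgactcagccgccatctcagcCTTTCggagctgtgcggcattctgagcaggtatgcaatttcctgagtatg
Rps3: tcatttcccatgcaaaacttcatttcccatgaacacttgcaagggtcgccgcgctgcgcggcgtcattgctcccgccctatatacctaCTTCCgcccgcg
The pyrimidine run CTTTC began at base 1 of the second Gas5 start and 1 base before the start of Snhg12. CTTCC began at base 3 of Snhg3 and base 39 of Rps3. Such runs at the first transcribed base are known from genes of the translation machinery. TATAAA occurred at base 23 of Snhg3. These positions are on the gene's strand, while the capitals of the first Gas5 start are CTTCC on the other strand. Of 32851 RefSeq windows of this length, 23.4% held CTTTC, 37.4% CTTCC and 4.94% TATAAA on either strand. On the gene's strand alone the shares were 12.8%, 19.5% and 3.40%. The match is a description of these letters only.

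Neither class of snoRNA differed between hemophagocytes and resting macrophages beyond the spread between arrays. Of 20 H/ACA members, 5 had higher and 15 lower mean values in hemophagocytes, with a median log2 change (hemophagocyte minus resting macrophage) of -0.08. Of 33 C/D members, 15 had higher and 18 lower values, with a median of -0.02. Over all features the median was -0.04, and 36.1% had values above 0, against 37.7% of the 53 members. In limma's test with Benjamini-Hochberg adjustment over all features, 0 of 53 members passed 0.05, where 0.01% of all features did, all of them higher. At an unadjusted p under 0.05, 1 member was higher (Snora73a, of 1.53% of all features in that direction) and 1 lower (Snord85, of 5.05%). The groups did not overlap in 2 members with higher values (Snora73a and Snora52) and 1 with lower values (Snora44), against 0.802% and 2.9% of all features. In either direction this was 3 of 53 members, against 3.71% of all features. The changes of 48 members (90.6%) lay within 0.3 log2 units of 0, against 96.8% of all features.

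**Figure D1:**
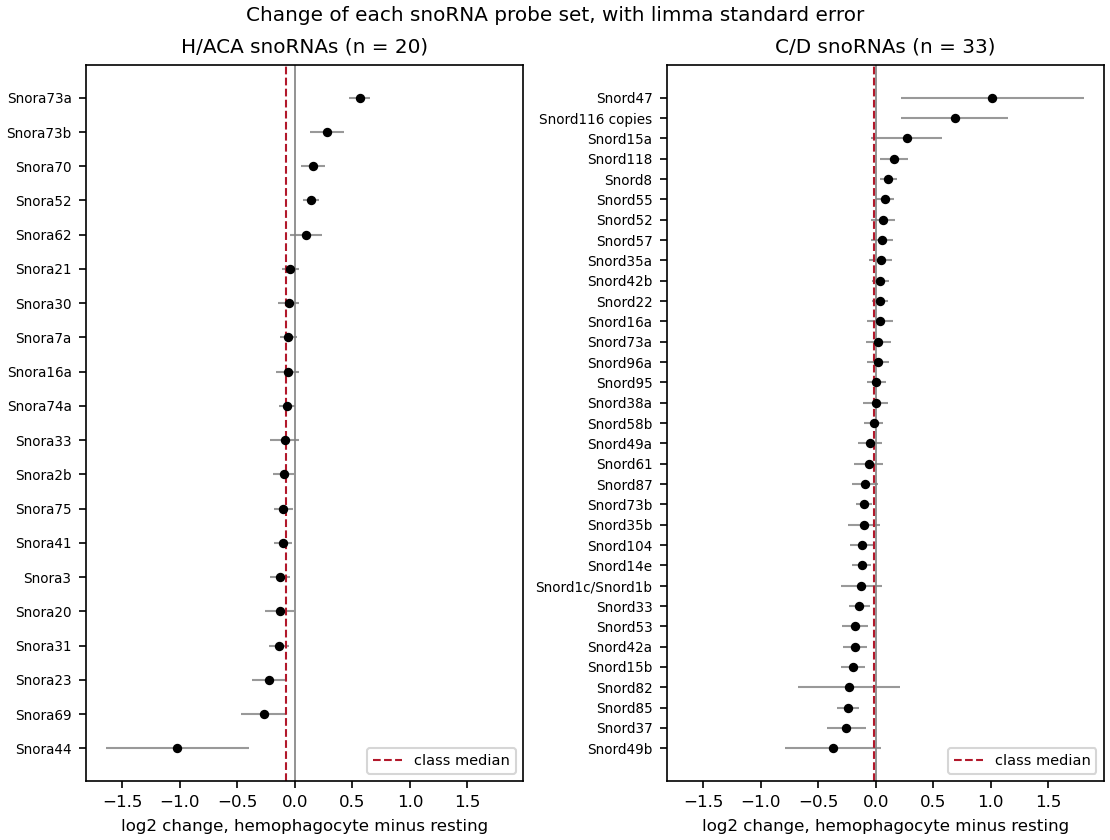
Log2 change of each snoRNA probe set between 4 hemophagocyte and 4 resting macrophage arrays (points) with its limma standard error (bars), for H/ACA members at left and C/D members at right. Most points lie near 0, the class medians (dashed) are -0.08 and -0.02, and the widest bars belong to Snora44, Snord47, Snord116, Snord82 and Snord49b.

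The array medians of the classes showed the same overlap. H/ACA members had medians of 6.27, 6.31, 6.36 and 6.38 on hemophagocytes 2, 3, 5 and 6, and of 6.33, 6.26, 6.32 and 6.23 on resting macrophages 3, 4, 5 and 6. C/D members had medians of 5.07, 5.22, 5.29 and 5.24 on hemophagocytes and 5.21, 5.29, 5.28 and 5.16 on resting macrophages. In both classes the 2 groups overlapped. The classes were not set against each other in level, since their probes differ.

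Most members read close to array background. As a gauge, 1190 olfactory and vomeronasal receptor genes, which spleen macrophages are not known to use, averaged 5.75 to 6.07 on hemophagocyte arrays and 5.99 to 6.16 on resting arrays, with hemophagocyte 3 lowest. Their 95th percentile was 7.42 to 7.81, and between 2 and 6 of the 53 members exceeded it on any array. Snora3 and Snora75 exceeded it in the means of both groups. Snora3, an H/ACA guide in an intron of Rpl27a, read 8.04, 7.84, 7.93 and 7.94 on hemophagocytes and 8.26, 8.07, 7.91 and 8.03 on resting macrophages. The groups overlapped, and its change was -0.13 (SE 0.09, limma adjusted p = 0.77). Snora75, in an intron of nucleolin (Ncl), ranged from 7.75 to 8.09 and from 7.93 to 8.10, also overlapping. Arrays correlated with each other across features at 0.940 to 0.965 among hemophagocytes and 0.968 to 0.975 among resting macrophages. Of 17 macrophage markers, 5 exceeded the receptor genes' 95th percentile in the hemophagocyte mean (Cd68, Lyz2, C1qa, C1qb and C1qc). In the resting macrophage mean 1 did (Lyz2). The array medians of the 17 were 6.55 to 7.16 and 6.53 to 6.58. On hemophagocyte 6 the same 5 markers read 6.55 to 7.69, under that array's percentile of 7.70. On hemophagocyte 2 only C1qb (7.61) of them exceeded that array's 7.59. Lyz2 read 5.86 and 6.55 on hemophagocytes 2 and 6, and 9.95 and 9.96 on 3 and 5. Its resting values were 7.45 to 8.89. The receptors Csf1r and Adgre1 did not exceed the percentile in either group, so the labelled cell type is marked here by few of its genes. The median of 5 erythroid markers was 6.88 to 7.07 on hemophagocyte and 6.84 to 7.05 on resting arrays, and none of the 5 exceeded that percentile.

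Snora73a had the smallest p among the members, and earlier results of these data were known when the snoRNAs were chosen for description. It is an H/ACA snoRNA needed for cleavage of the precursor of the small subunit ribosomal RNA. Snora73a (probe set 10516908) read 5.33, 5.24, 5.02 and 5.06 on hemophagocytes 2, 3, 5 and 6 and 4.68, 4.46, 4.58 and 4.67 on resting macrophages 3, 4, 5 and 6. Every hemophagocyte array lay above every resting array, with means of 5.16 ± 0.15 and 4.60 ± 0.10 (log2, SD, n = 4 each). The difference of 0.56 (SE 0.09), or 1.48-fold, did not pass (limma adjusted p = 0.27). All 8 values were below the mean of the sensory receptor genes on the same array. That mean was 5.75 to 6.07 on hemophagocytes and 5.99 to 6.16 on resting macrophages, lowest on hemophagocyte 3 and overlapping between the groups. Of the 1190 receptor genes, however, 1082 had lower values in hemophagocytes. With the receptor mean as a covariate the change of Snora73a was 0.46 (limma adjusted p = 0.95). When single arrays were left out the change ran from 0.51 to 0.61 and the adjusted p from 0.20 to 0.93.

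Snora73b, the near neighbour of Snora73a in Snhg3 and of the same function, showed a smaller difference. It read 5.95, 6.01, 5.53 and 5.63 on hemophagocytes and 5.79, 5.31, 5.67 and 5.23 on resting macrophages. Hemophagocytes 2 and 3 were above all resting arrays and hemophagocytes 5 and 6 were among them. The change of 0.28 (SE 0.15) did not pass (limma adjusted p = 0.75), and with the sensory receptor covariate it was 0.05. The host Snhg3 itself was not analysed here. The 2 snoRNAs are similar in sequence, so cross-binding between their probes cannot be told apart from a shared level.

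**Figure D2:**
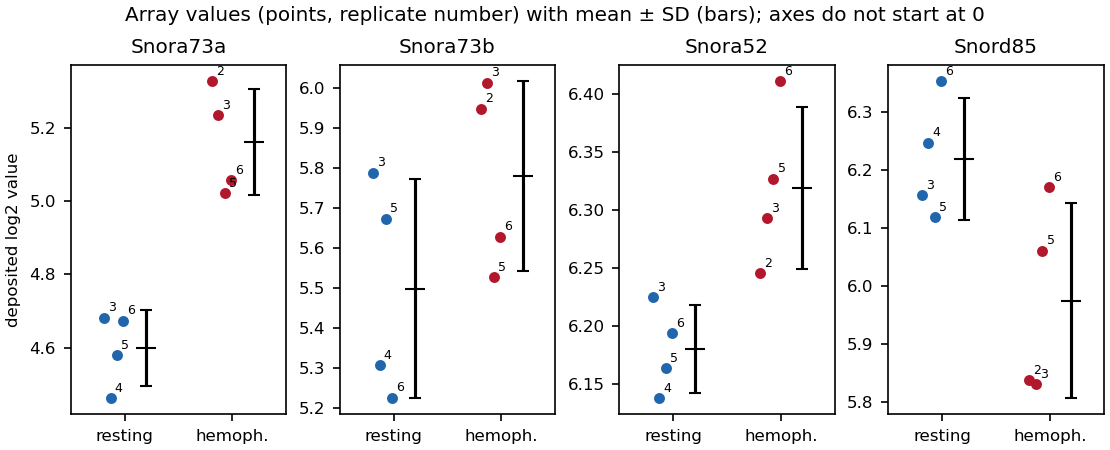
Deposited log2 values of Snora73a, Snora73b, Snora52 and Snord85 on each array (points, labelled with the replicate number), with mean ± SD per group of 4 at the right of the points. Snora73a and Snora52 do not overlap between the groups, and Snora73b and Snord85 do.

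Other snoRNAs of ribosomal RNA cleavage had smaller differences. Of a list of 10 such snoRNAs, 5 had a probe set of their own, 4 of them (Snora73a and Snora73b included) with changes above 0 and 0 past the threshold. Snord118, which the large subunit ribosomal RNA needs for its processing, read 4.77, 5.08, 4.99 and 5.24 on hemophagocytes and 5.11, 4.60, 4.89 and 4.85 on resting macrophages. The groups overlapped and its change was 0.16. Snord22, of Snhg1 and needed for the small subunit RNA, ranged from 6.18 to 6.32 and from 6.15 to 6.31, with a change of 0.04. Snord14e, of Hspa8 and also tied to the small subunit RNA, had a change of -0.12.

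Among the other H/ACA guides, apart from Snora44 with its single high array, the changes lay between -0.27 and 0.16. Snora52, in an intron of Rplp2, read 6.25, 6.29, 6.33 and 6.41 on hemophagocytes and 6.23, 6.14, 6.16 and 6.19 on resting macrophages. The groups did not overlap, but the gap between hemophagocyte 2 and resting macrophage 3 was narrow, and the change was 0.14 (SE 0.07, limma adjusted p = 0.75). Snora70, in Rpl10, had a change of 0.16 and Snora62, in Rpsa, one of 0.10, with overlapping groups. On the lower side, Snora69 of Rpl39 read 5.03, 4.65, 5.62 and 5.52 on hemophagocytes and 5.15, 5.56, 5.54 and 5.65 on resting macrophages. Its change was -0.27 (SE 0.20), and the low values were those of hemophagocytes 2 and 3 and resting macrophage 3. Snora23, in Ipo7, had a change of -0.23 and Snora31, in Tpt1, one of -0.14. The 10 H/ACA members not named had changes of -0.13 to -0.04 and overlapping groups.

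C/D guides had changes of like size, apart from members with a single high array. Snord85 read 5.84, 5.83, 6.06 and 6.17 on hemophagocytes and 6.16, 6.25, 6.12 and 6.35 on resting macrophages. The groups overlapped through hemophagocyte 6, and the change of -0.24 (SE 0.10) did not pass (limma adjusted p = 0.75). Snord15b, in Rps3, had a change of -0.20, Snord42a, in Rpl23a, one of -0.18, and Snord53, in Wdr43, one of -0.18. Snord8, in Chd8, stood at 0.11 and Snord55 at 0.08. The 17 C/D members named neither for their p, nor for a high array, nor from a list had changes of -0.26 to 0.06, all with overlapping groups.

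The snoRNAs of Rpl13a introns are known for a role in the death of cells under lipid stress. Of 4 such snoRNAs, 2 had a probe set of their own. Snord33 read 5.65, 5.79, 5.77 and 5.74 on hemophagocytes and 5.66, 5.97, 6.07 and 5.82 on resting macrophages. Snord35a read 4.56, 4.42, 4.15 and 4.10 against 4.33, 4.23, 4.25 and 4.26. Both overlapped between the groups, with changes of -0.14 and 0.04 (limma adjusted p = 0.76 and 0.94). Of 8 snoRNAs of Snhg1 and 10 of Gas5, 1 each was measured alone, Snord22 and Snord47.

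**Figure D3:**
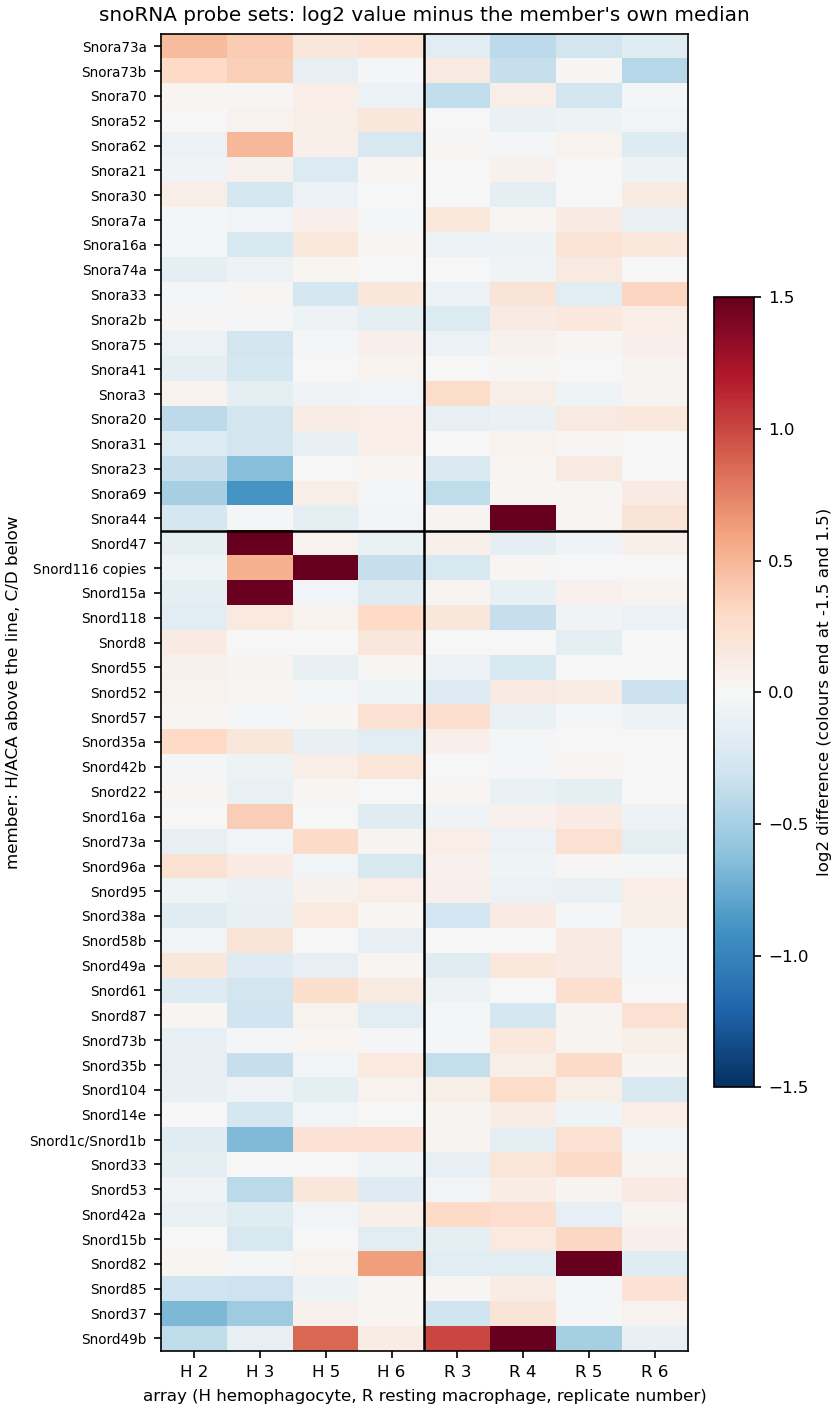
Heat map of the 53 members by array, each value as log2 difference from the member's own median over 8 arrays, with H/ACA members above and C/D members below the horizontal line and hemophagocytes left of the vertical line. Most cells are pale, and the darkest red cells (colours end at 1.5 log2 units) are single arrays of Snora44, Snord47, Snord116, Snord15a, Snord82 and Snord49b.

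The largest changes among the C/D members, and the largest of all on the lower side, belonged to snoRNAs with a high value on a single array. They were singled out after the values were seen. In 6 of 53 members (11.3%) one array lay more than 1 log2 unit above the member's own median, against 299 of all 19940 features. Each of the 6 had exactly 1 such array, 3 of them hemophagocyte and 3 resting. By class, 1 of 20 H/ACA members and 5 of 33 C/D members were among them. Hemophagocyte 3 held 2 of these values, hemophagocyte 5 held 1, resting macrophage 4 held 2 and resting macrophage 5 held 1. Over all features, hemophagocytes 3 and 5 held 154 and 160 such values and each resting array 7 to 16.

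Snord47, a C/D guide of the Gas5 introns, read 8.58 on hemophagocyte 3 and 4.27, 4.46 and 4.31 on hemophagocytes 2, 5 and 6. Resting macrophages 3 to 6 read 4.48, 4.26, 4.35 and 4.47. Its change of 1.01 (SE 0.80, limma adjusted p = 0.78) rested on that array and was -0.05 without it. Gas5, a growth-arrest noncoding RNA whose introns carry a series of C/D snoRNAs, read 8.73 on hemophagocyte 3, 9.88 on resting macrophage 4 and 5.80 to 6.41 on the other arrays. Host and snoRNA were thus both high on hemophagocyte 3, while on resting macrophage 4 only the host was.

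Snord15a and Snord82 were also high on an array where their host was at its highest. Snord15a, of Rps3, read 7.97 on hemophagocyte 3 and 6.30 to 6.56 on the other arrays, while Rps3 read 6.32 there and 4.73 to 5.75 elsewhere. Snord15b, from the same host, read 6.70 on that array and 6.79 to 7.25 elsewhere, so the second snoRNA of Rps3 was at its lowest there. Without hemophagocyte 3 the change of Snord15a went from 0.27 to -0.13. Snord82, of nucleolin, read 5.01 on resting macrophage 5 and 2.72 to 3.53 on the other arrays, and Ncl read 6.01 there and 5.36 to 5.77 elsewhere. Snora75, also in nucleolin, read 8.04 on that array and 7.75 to 8.10 elsewhere. Without resting macrophage 5 the change of Snord82 went from -0.23 to 0.34.

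Snora44 held the highest snoRNA value of all. It read 11.00 on resting macrophage 4, 7.66, 7.65 and 7.81 on the other resting arrays, and 7.37, 7.59, 7.49 and 7.58 on hemophagocytes. The change of -1.02 (SE 0.62, limma adjusted p = 0.75) was -0.20 without resting macrophage 4. Snora16a, from the same host Snhg12, read 4.50 on that array and 4.35 to 4.78 over all arrays. Snord49b, of the noncoding gene 2410006H16Rik, was less even across the other arrays, with 6.35, 6.60, 7.60 and 6.84 on hemophagocytes and 7.73, 8.32, 6.23 and 6.62 on resting macrophages. Its partner Snord49a stayed between 5.22 and 5.58. Without resting macrophage 4 the change of Snord49b was -0.01, against -0.38 with it.

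The Snord116 copies belong to an imprinted locus that is active mainly in the brain and is lost in Prader-Willi syndrome. They share 24 probe sets that name Snord116l2, Snord116l1 and Gm26504 together. The brightest read 4.70, 5.30, 7.15 and 4.42 on hemophagocytes 2, 3, 5 and 6, and 4.52, 4.78, 4.77 and 4.76 on resting macrophages. Hemophagocyte 5 was thus far above every other array, and the change of 0.69 (SE 0.47, limma adjusted p = 0.77) was 0.10 without it. All 24 probe sets were highest on hemophagocyte 5, at 6.19 to 7.15, but they hold only 7 different sets of values, so they are not independent readings.

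**Figure D4:**
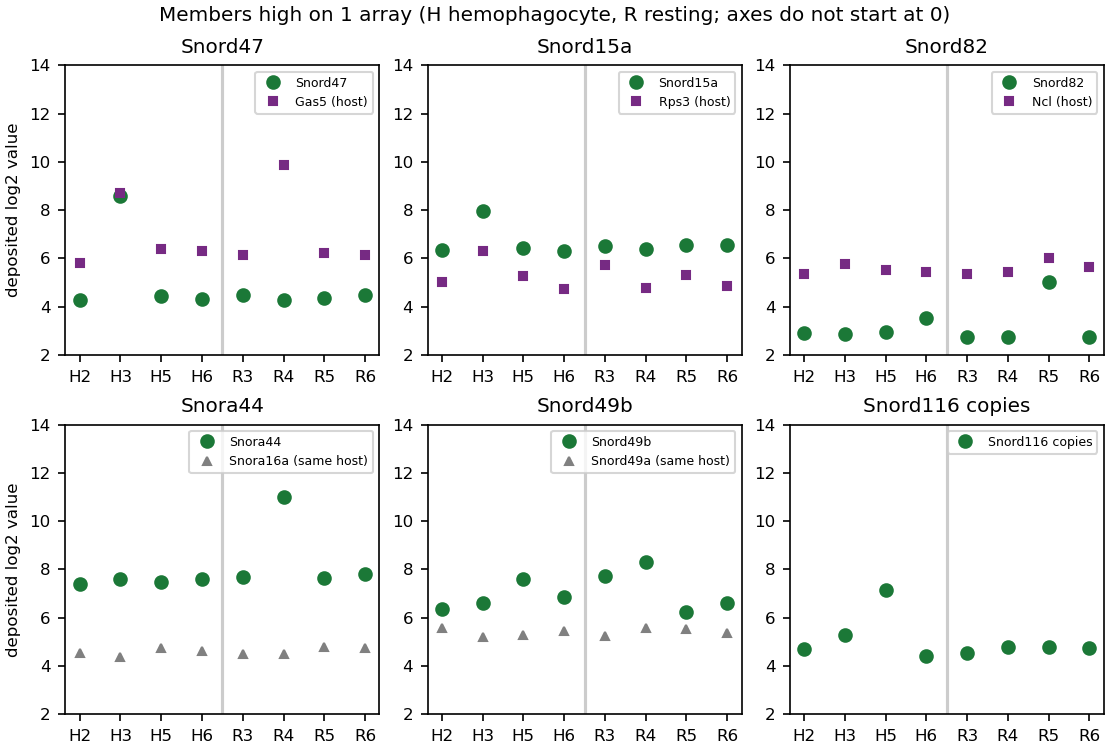
Deposited log2 values by array (H hemophagocyte, R resting macrophage, with replicate number) of the 6 members with a high array (circles), of a measured host gene (squares) and of the other snoRNA of the same host (triangles). Snord47, Snord15a and Snord82 are high where their host is high or highest, and Snora16a and Snord49a stay level where their partners are high.

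Host genes and their snoRNAs were then set side by side. A host with a probe set of its own was measured for 30 members, through 26 different hosts. That probe set was chosen by the host's symbol and highest mean, not by its place beside the snoRNA. In 24 of the 30 pairs the change of the host was above that of the snoRNA, and in 18 both had the same sign. In 8 pairs the host's change exceeded 0.3, and in these the snoRNA's change lay between -0.18 and 0.16, with 5 of the 8 below 0. No host passed the threshold. Of the 26 hosts, 13 had changes above 0 and 13 below. Groups did not overlap in 2 of them, Kansl2 and Nop56, both lower, against 2.9% of all features in that direction. Kansl2, which holds Snora2b, read 6.08, 6.03, 6.16 and 6.17 on hemophagocytes and 6.37, 6.37, 6.41 and 6.46 on resting macrophages. Its change was -0.29 (SE 0.07, limma adjusted p = 0.75), and -0.31 to -0.26 with single arrays left out. Snora2b had a change of -0.10.

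Hspa8, a constitutive heat shock protein, read 9.50, 11.20, 10.42 and 9.29 on hemophagocytes and 8.55, 8.76, 9.39 and 8.46 on resting macrophages. Only hemophagocyte 6 lay within the resting range, and the change was 1.31 (SE 0.37, limma adjusted p = 0.75). Its intronic Snord14e read 5.70, 5.43, 5.66 and 5.70 against 5.74, 5.81, 5.63 and 5.79, with a change of -0.12. Rpl23a, a protein of the large ribosomal subunit, had a change of 1.03 (SE 0.39), while its snoRNAs Snord42a and Snord42b had changes of -0.18 and 0.04. Rpl27a had a change of 0.85 and Snora3 one of -0.13. In each of these hosts hemophagocyte 3 had the highest value, and the changes without it were 0.94 for Hspa8, 0.61 for Rpl23a and 0.33 for Rpl27a.

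All 10 measured ribosomal protein hosts had changes above 0 in the deposited values, after median centring and after cyclic loess normalization. After quantile normalization 8 of 10 did, and with the sensory receptor covariate 6 of 10. Of all features, 36.1%, 47.1%, 50.7%, 47.2% and 46.0% did, in that order. In the deposited values the hosts' median change was 0.34, and their 13 snoRNAs had a median of 0.02, 7 of them above 0. None of the 10 hosts passed. Without hemophagocyte 3 the hosts' median was 0.13 with 6 of 10 above 0, and without hemophagocytes 3 and 5 it was -0.07. It was 0.54 without hemophagocyte 2, 0.52 without resting macrophage 4 and 0.69 with the replicate number as a block, so its size depended on which arrays were used. At or above the median level of all features were 9 of the 10 hosts but 5 of the 13 snoRNAs, and signal near background limits what a probe set can show. The difference between hosts and snoRNAs was not tested.

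Some markers of other cells were also high on hemophagocytes 3 and 5. The platelet gene Pf4 read 10.35 and 9.11 there and 5.49 to 7.41 elsewhere. Among neutrophil genes, S100a8 read 8.02 on hemophagocyte 3 and 4.60 to 6.41 elsewhere, and S100a9 read 9.12 there and 6.01 to 7.33 elsewhere. The other 6 neutrophil markers had changes from -0.14 (Ly6g) to 0.05 (Mpo), and the other 4 platelet markers from -0.20 (Ppbp) to 0.05 (Itga2b). The array means of the 8 neutrophil markers were 6.17 to 6.84 in hemophagocytes and 6.18 to 6.24 in resting macrophages, and those of the 5 platelet markers 6.36 to 7.25 and 6.60 to 6.81. The macrophage gene Cd68 was high on the same arrays, at 9.66 and 10.52 against 7.21 to 7.50 elsewhere. What part other cells had in the values of the ribosomal protein hosts and of the snoRNAs high on hemophagocytes 3 and 5 was not tested.

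Ribosomal protein genes have many near-identical copies in the genome, which the probe sets may also bind. Rps12 had 14 single-gene probe sets, Rpl23a had 13, Rpl27a had 9 and Rpl10 had 6. The probe set used for Rps12 read 7.10 on hemophagocyte 2, 6.86 on resting macrophage 3 and 10.20 to 11.14 on the other arrays. Its change was 0.43 (SE 1.00). Whether the probe set used for a host reads the gene that holds the snoRNA or a copy elsewhere was not tested. Taking the mean of all probe sets per gene, which pools any such copies, gave the hosts a median of 0.38.

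**Figure D5:**
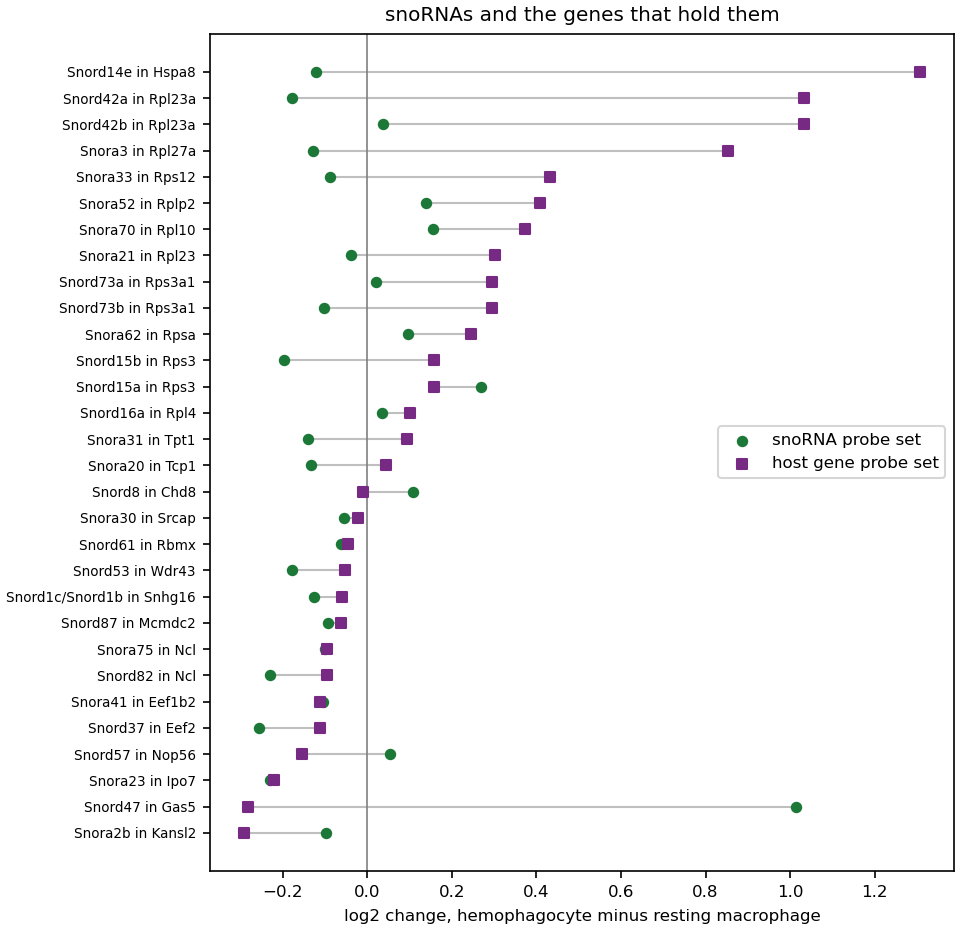
Log2 change, hemophagocyte minus resting macrophage, of 30 snoRNAs (circles) and of the gene that holds each (squares), ordered by the host's change. The squares reach 1.31 at the top while the circles stay between -0.26 and 0.27, apart from Snord47 at 1.01.

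Proteins of the snoRNA particles did not pass either. In the H/ACA particle, Gar1 read 7.06, 6.90, 6.85 and 6.98 on hemophagocytes and 6.93, 6.64, 6.75 and 6.74 on resting macrophages, overlapping through resting macrophage 3. Its change was 0.18 (SE 0.08, limma adjusted p = 0.75). Dkc1, the pseudouridine synthase, stood at -0.05, Nhp2 at -0.09 and Nop10 at -0.03. In the C/D particle, Nop56 had a change of -0.15 and groups that just did not overlap (6.54 to 6.76 against 6.76 to 6.89). The methyltransferase fibrillarin (Fbl) stood at 0.04, Nop58 at -0.07 and Snu13 at 0.10.

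Assembly factors and genes of ribosomal RNA synthesis showed like values. Of 15 assembly factors 7 had values above 0 and 0 passed, with a median of -0.04. Phax, an adaptor for nuclear export of small RNAs that also binds snoRNAs, stood at 0.23. Tgs1, which methylates the cap of those small RNAs that carry one, stood at -0.15. Ruvbl1 and Nufip1 stood at -0.12 and -0.13. Of 32 genes of ribosomal RNA transcription and processing 9 had values above 0 and 0 passed, with a median of -0.06. The acetyltransferase Nat10 (-0.22) and the polymerase I factor subunits Taf1d (-0.23) and Taf1b (-0.13) had the smallest p values with Dcaf13 (-0.14). Of a separate list of 40 host genes 25 were measured, 10 with values above 0 and 0 past the threshold. Within that list Hspa8, Rpsa (0.25), Tnpo2 (-0.17) and Nop56 had the smallest p values. Kansl2, a host by span outside that list, had a smaller limma p than any of these.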

How the data were processed

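The authors deposited log2 values for each array and probe set; the scale was read from the range of the values. The submitters' processing notes list Affymetrix Expression Console 1.1, and how it corrected background, summarised probes and normalized is not stated in them. Amplification used WT-Ovation One-Direct, per the labels' protocols, and from few cells it can leave out or overstate transcripts. The table held 35556 probe sets. Single-gene probe sets (1 per symbol, highest mean) plus probe sets naming only snoRNAs gave 19940 features. Gm26504 counts as a snoRNA by its RefSeq biotype. Groups came from the sample titles, 4 arrays each, which limits the precision. limma 3.58.1 in R 4.3.3 (lmFit, eBayes, no block) was run over all features with Benjamini-Hochberg adjustment. It was tested on simulated data. Hosts were taken by span, since the planned strand match was not possible with the table used. Named members are, per class and direction, the 5 of smallest p, those whose groups did not overlap, up to 4 per snoRNA list, and those with a high array, chosen after seeing values. Other lists give their 4 of smallest p. No member has an entry in the promoter table, so start windows of hosts are shown instead. Members, lists and alternatives were chosen with earlier results of these data known. Alternatives were normalization, dim filter, prior, array weights, probe set rule, a sensory receptor covariate, replicate block and arrays left out. Of the markers of T, B, NK, neutrophil and platelet cells, 0 passed the threshold and 1 (Pf4, in hemophagocytes) exceeded the 95th percentile of sensory receptor genes. The hosts of some members are not reported here.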

Additional observations from a re-analysis of the deposited data

Results flagged for a closer look

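In groups of 4 arrays, 11 of 106 group readings of the 53 members held an array set far from the other 3, by Dixon's ratio of the gap to the whole range. Chance gives about 1 in 20 groups, or 5.3 here, and over all features 5.55% of group readings held such an array, against 10.4% of the members' readings. Of the 11, 5 were in hemophagocytes and 6 in resting macrophages. Large gaps were those of Snord47 on hemophagocyte 3 (8.58, others 4.27 to 4.46), Snora44 on resting macrophage 4 (11.00, others 7.65 to 7.81), Snord82 on resting macrophage 5 (5.01, others 2.72 to 2.75) and Snord15a on hemophagocyte 3 (7.97, others 6.30 to 6.44). Snord82 on hemophagocyte 6 read 3.53 and the others 2.88 to 2.95. The remaining gaps were small in size. Snora2b on resting macrophage 3 read 2.49 (others 2.80 to 2.86), Snora7a on hemophagocyte 5 read 6.44 (others 6.32 to 6.34), and Snord14e on hemophagocyte 3 read 5.43 (others 5.66 to 5.70). Snord15a on resting macrophage 4 read 6.37 (others 6.53 to 6.56), Snord8 on resting macrophage 5 read 7.62 (others 7.75 to 7.76), and the Snord116 copies on resting macrophage 3 read 4.52 (others 4.76 to 4.78).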

How the results depend on the processing

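No snoRNA passed the threshold in any of 20 alternatives. Snora73a was itself among the dim features left out in 1 of them, and over the others its smallest adjusted p was 0.20, without hemophagocyte 2, and the largest 0.95, with the sensory receptor covariate; its change stayed between 0.46 and 0.61. Members whose groups do not overlap numbered 3 with all arrays, 1 when dim features were left out, 9 without hemophagocytes 3 and 5 together, and 3 to 8 when single arrays were left out (8 without resting macrophage 3, 6 without hemophagocyte 5 or 6, 5 without resting macrophage 5). Fewer arrays separate more easily by construction: over all features the share was 3.71% with all arrays, 3.91% without dim features, 12.8% without hemophagocytes 3 and 5, and 5.58% to 8.82% without single arrays. The median change of H/ACA snoRNAs went from -0.08 to 0.016 with the sensory receptor covariate (the cause was not tested) and lay between -0.09 and -0.05 when single arrays were left out. That of C/D snoRNAs stayed between -0.09 and 0.04 and was on the other side of 0 in 5 alternatives. Members with values above 0 numbered 20 with the deposited values, 22 after cyclic loess normalization and 30 with the covariate, where 36.1%, 50.7% and 46.0% of all features did. Replicate numbers 3, 5 and 6 occur in both groups. Deviations of same-numbered arrays correlated at 0.17, 0.07 and 0.12, and those of arrays with unlike numbers at -0.24 to 0.18. The numbers are only part of the sample titles and were not taken as pairs. With the replicate number as a block, calls over all features went from 2 to 7, 0 of them snoRNAs, and the change of Snora73a was 0.46 (adjusted p = 0.51). Without hemophagocyte 2, limma called 11 features. Signal near background limits what most of these probe sets can show.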

Other observations

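Among other short noncoding RNAs, 0 passed the threshold. Of 300 microRNA genes, 93 had values above 0, and in limma's test 0 passed after adjustment (before adjustment, 4 with higher and 25 with lower values were under 0.05), with a median change of -0.05, and 1.67% had an array more than 1 log2 unit above their own median, against 11.3% of the snoRNAs. Mir692-1 had a change of 1.33 and Mir29a, Mir495 and Mirlet7a-1 had changes of -0.48, -0.37 and -0.39 (limma adjusted p = 0.75 for all 4). The small Cajal body RNAs, which guide modification of spliceosomal RNAs, had changes of -0.06 (Scarna13), -0.05 (Scarna8) and -0.01 (Scarna17).

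Genes near the Snord116 copies in the same imprinted region were looked at after the high value of hemophagocyte 5 was seen. On that array Ndn read 7.04 (6.63 to 7.05 elsewhere), Magel2 read 6.95 (6.77 to 6.95 elsewhere) and Mkrn3 read 5.39 (5.36 to 5.64 elsewhere). None of the 3 was above the range of the other arrays there.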
